A study of Mus musculus with 32 samples.

Results

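Livers of mice given rosiglitazone were compared with livers of mice given a soy isoflavone extract, with 4 arrays in each group. All 12422 probe sets of the array other than its control probe sets were taken, and 7357 of them were bright enough to be tested. In the rosiglitazone group (ROS), male mice of the B6C3F1 hybrid strain received rosiglitazone (Avandia) in the control diet. In the soy group (SOY), mice of the same sex and strain received the isoflavone extract in that diet. A further group (CON), also of 4 mice, stayed on 93 kcal per week of the control diet, a defined AIN-93M formula, and its values are given beside the others. Treatment began at 20 months of age and lasted 8 weeks, and livers were taken at 22 months, following 48 hours without food. All had been housed singly on the control diet from 5 months, and each array held the liver RNA of 1 mouse. The labels do not state the doses, so the agents are compared as fed and not at matched doses. The results apply to fasted old males of 1 strain. The series as a whole held 32 arrays in 8 groups and asked which diets and drugs resemble calorie restriction in the liver.

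Rosiglitazone is a thiazolidinedione, a synthetic ligand of the nuclear receptor PPAR gamma, which pairs with a retinoid X receptor on DNA and switches on genes of fat storage. Its main site of action is adipose tissue. The liver normally holds little PPAR gamma and more PPAR alpha, the related receptor that drives fatty acid oxidation in fasting. Soy isoflavones such as genistein and daidzein are plant compounds that bind estrogen receptors, preferring the beta form, and some have been reported to bind PPARs in cultured cells.

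The tissue markers fitted liver: albumin (Alb) lay between 34081 and 43663 intensity units in ROS and between 37325 and 40632 in SOY. Arrays correlated over the tested probe sets with Pearson coefficients of 0.959 to 0.975 within ROS or SOY and of 0.957 to 0.970 between them. Some arrays stood apart. The summed intensity of 20 skeletal muscle markers, of 20 listed, was 33702 in ROS 4 and 10784 in SOY 3, against medians of 3958 over the ROS arrays and 3898.5 over the SOY arrays. CON ranged from 3354 to 24559. Among them Acta1, skeletal actin, had 14.9, 34.4, 191.9 and 10461 units in ROS, against 15.5, 50.4, 2874 and 131.7 in SOY. The markers did not all follow Acta1: Mylpf was highest in the same arrays, with 531.8 in ROS 4 and 361.2 in SOY 3. Ckm was not, with 171.8 in ROS 4 and 206.8 in SOY 3. Acute phase genes were high in ROS 2 and SOY 2, where Saa2, serum amyloid A, reached 23158 and 9040 units, against 844 to 1573 in the other ROS arrays and 645.6 to 1518 in the other SOY arrays. Counts without these arrays are given below.

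Of the 7357 probe sets, limma called 34, or 0.462%, between ROS and SOY at an adjusted p under 0.05. They comprised 9 that were higher in ROS (0.122%) and 25 that were lower (0.34%). Of the 34, 31 had 1 gene symbol, 1 had several and 2 had none. At an unadjusted p under 0.05 there were 1016, with 560 higher and 456 lower, and in 708 (9.62%) the 4 ROS arrays did not overlap the 4 SOY arrays. Of the called probe sets 32 did not overlap, the exceptions being Lgals1 and Psma6. Calls and overlap rest on the same arrays, and the rule for named genes asked for no overlap. Statements below that groups were apart thus describe called genes and add no independent support. The median log2 difference, ROS minus SOY, was 0.04 over all tested probe sets. A difference is on the scale of log2(intensity + 27), which understates differences of dim genes, and its error is a standard error (SE) of the fit. The plot of differences against brightness shows that the called probe sets lie mainly on the bright, lower side.

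**Figure D1:**
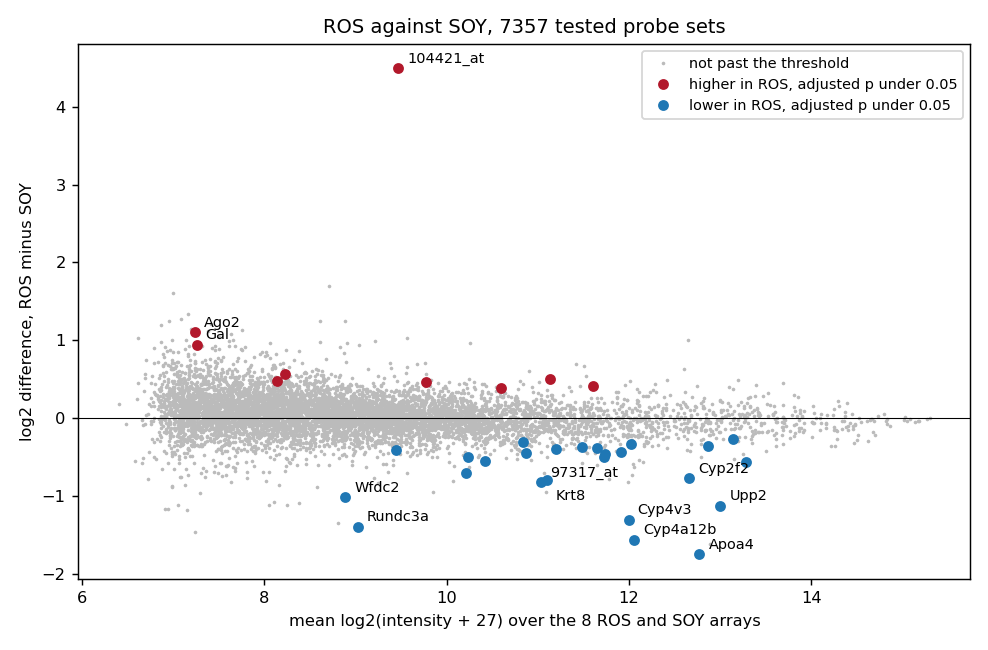
Log2 difference, ROS minus SOY, of 7357 tested probe sets (y axis) against their mean log2(intensity + 27) over the 8 arrays (x axis). Red points are the 9 probe sets that passed the threshold and were higher in ROS, blue points the 25 that were lower, and grey points the rest; names are given beyond 0.75. Of the 34, 27 are among the 2452 brightest probe sets.

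That split between directions depended on the scaling. The arrays' median intensities were 163.1 to 170.05 units in ROS and 148.3 to 153.15 in SOY (165.66 ± 3.30 and 151.29 ± 2.09; SD, n = 4), without overlap (exact permutation p = 0.0286, the smallest that 4 against 4 arrays allow; adjusted p = 0.229 over 16 measures). CON lay between 162.15 and 165.2. The authors' scaling had set trimmed means equal, not medians. Scaled to equal medians, 238 probe sets passed, 6 higher and 232 lower, so that 2.52% of calls were higher, against 26.5% as deposited and 20.8% after quantile normalization (5 higher, 19 lower). With equal medians the median difference over all probe sets was -0.08. In the deposited values the median difference was 0.11 over the 2453 dimmest probe sets, 0.05 over the next 2452 and -0.03 over the 2452 brightest. Small differences, and the sign of a list median near 0, therefore follow the scaling, and each list below is read against the median of all probe sets. That median is not matched to the brightness of a list, and for a list of bright genes -0.03 is the closer comparison. Counts of negative members below are given without their share over all probe sets. Counts of called members stand beside 0.122% higher and 0.34% lower over all 7357 probe sets. Unadjusted counts stand beside 560 higher and 456 lower of the 7357.

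**Figure D2:**
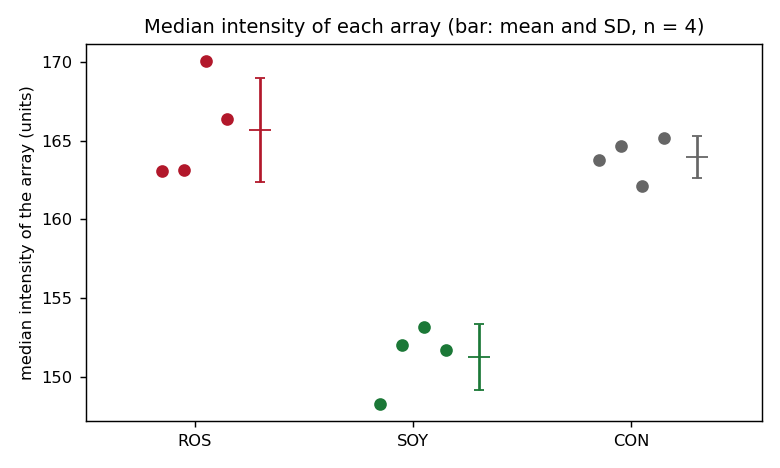
Median intensity of each array (y axis, intensity units) in ROS, SOY and CON. Points are arrays and bars give the mean and SD (n = 4); the SOY arrays, at 148.3 to 153.15, lie below all ROS and CON arrays. The y axis does not start at 0.

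The number of calls also followed single arrays. It was 13 without ROS 1, 17 without ROS 2, 19 without ROS 3, 23 without ROS 4, 8 without SOY 1, 9 without SOY 2, 33 without SOY 3 and 38 without SOY 4. It was 19 without ROS 4 and SOY 3, the arrays with more muscle RNA, and 14 without ROS 2 and SOY 2, those with high acute phase genes. Called in every one of the 8 fits that left out 1 array were 6 probe sets: Apoa4, Rundc3a, Upp2, Lamp1, Sqstm1 and the unnamed probe set 104421_at. In the fit to the ROS and SOY arrays alone, which has fewer arrays to estimate the spread from, 8 of the 34 passed: Apoa4, Rundc3a, Upp2, Krt8, Lamp1, Atp6v1a, Ywhaz and 104421_at. After quantile normalization 21 of the 34 passed. Those that did not were Lgals1, Slc35d1, Ywhaz, Cryz, Psma6, Akr1a1, Bud31 and Serpind1, lower in ROS, and Ago2, Cdkn2aipnl, Phf7 and the called probe sets of Gal and Sfxn2, higher in ROS.

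Apoa4, an apolipoprotein of chylomicrons and high-density lipoprotein that is made in intestine and liver, had the largest fall in ROS relative to SOY. Its probe set read 3681, 2621, 4814 and 4399 intensity units in the ROS arrays, against 15180.2, 10634, 13739 and 12198 in the SOY arrays. Every SOY array exceeded every ROS array by a wide margin, and CON, at 11456, 12798, 12371 and 12975, lay with SOY. The log2 difference was -1.75 ± 0.18 (limma, adjusted p = 6.62e-07). Its change against CON was -1.70 ± 0.18 in ROS (adjusted p = 1.26e-06) and 0.05 ± 0.18 in SOY (adjusted p = 0.966). No other member of the lipoprotein list passed the threshold: of 23 measured genes 1 was lower and 0 higher, with a median of 0.00, against 0.04 for all probe sets. Apom, which carries sphingosine phosphate on high-density lipoprotein, had 0.38 ± 0.18 (adjusted p = 0.349), and Apoc2, the activator of lipoprotein lipase, had -0.33 ± 0.11 (adjusted p = 0.181).

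Rundc3a, Upp2 and Wfdc2 were lower in ROS as well. Rundc3a, a RUN domain protein described mainly in neurons, read 309.9, 224, 258 and 414 intensity units in the ROS arrays, against 858, 837, 795 and 783 in the SOY arrays, a log2 difference of -1.40 ± 0.16 (adjusted p = 6.15e-06). Upp2, a uridine phosphorylase of liver, read 6316, 5726, 4842 and 5307 in ROS, against 10657, 10234, 13569.7 and 14442 in SOY, a difference of -1.13 ± 0.19 (adjusted p = 0.00246). Wfdc2, a secreted protein of the whey acidic protein family, read 385, 432, 280.4 and 186 in ROS, against 709, 647, 718 and 538 in SOY, a difference of -1.02 ± 0.22 (adjusted p = 0.0265). In all 3 genes the ROS and SOY arrays were apart. CON values again lay near SOY, with means of 824 ± 107 for Rundc3a, 11408 ± 2408 for Upp2 and 715 ± 121 for Wfdc2 (SD, n = 4). The call of Wfdc2 ended without ROS 3, ROS 4, SOY 1, SOY 2 or SOY 3, with the highest adjusted p of 0.112 without ROS 4. The plot of intensities by array shows these genes with 4 others.

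**Figure D3:**
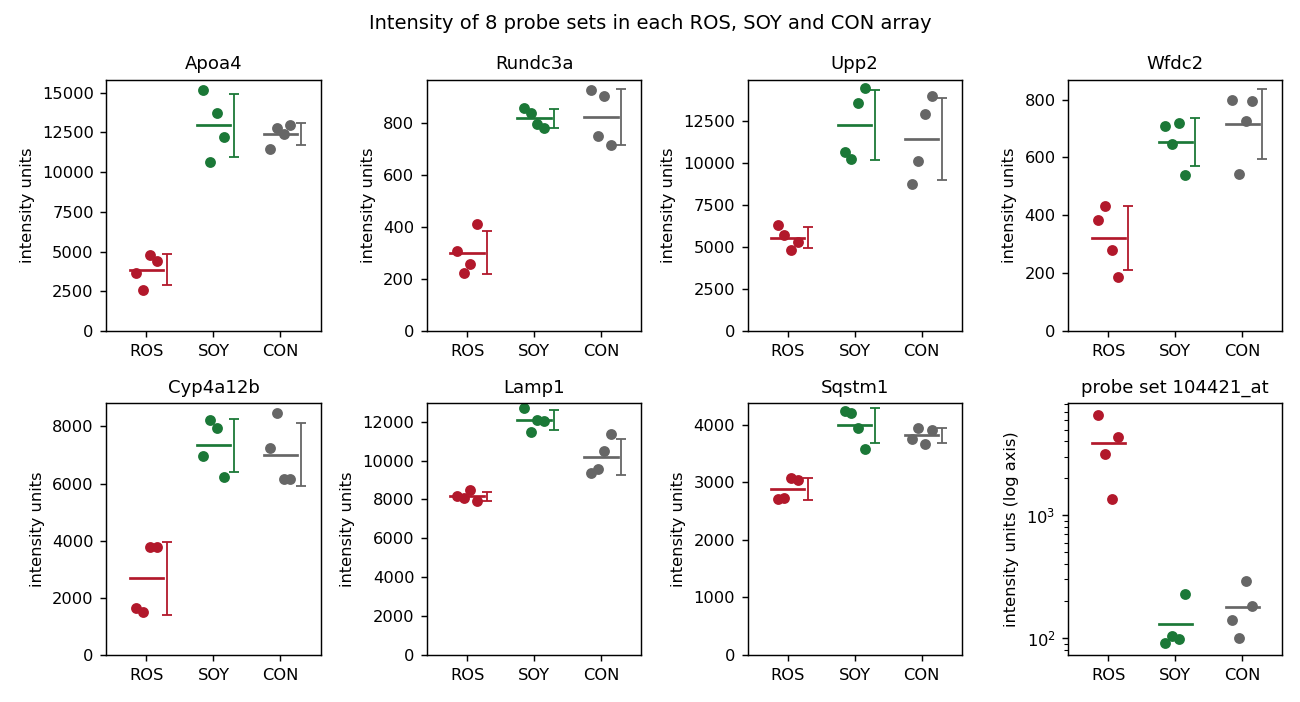
Intensity of 8 probe sets in each array (y axes, intensity units; the axis of 104421_at is logarithmic). Points are arrays, lines are means and bars are SDs (n = 4; no bar on the logarithmic axis). In every panel the ROS points do not overlap the SOY points, and the CON mean lies nearer to SOY than to ROS.

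Rundc3a, Upp2 and Wfdc2 stand in the list of growth hormone, sex-dependent and estrogen-responsive liver genes because they had changed in earlier results of these arrays, so their count there is no independent evidence. With Cyp4a12b they were the 4 members lower in ROS, of 28 measured, and 0 were higher. The median of the list was -0.07, against 0.04 for all probe sets. Igf1, the growth factor that growth hormone induces in liver, had -0.06 ± 0.12 (adjusted p = 0.865), and its other probe set had 0.23 (adjusted p = 0.218).

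The cytochrome P450 enzymes Cyp4a12b, Cyp4v3 and Cyp2f2 were lower in ROS, 3 of 27 measured genes in the list of P450 enzymes and xenobiotic receptors, of which 17 had negative and 10 positive differences. Cyp4a12b, a fatty acid hydroxylase that is higher in male than in female mice, read 1649, 1509.8, 3763 and 3786 intensity units in the ROS arrays, against 6951, 8217, 7960.0 and 6217 in the SOY arrays. Its log2 difference was -1.57 ± 0.30 (limma, adjusted p = 0.0128), and the probe set can also take signal from near-identical Cyp4a12 copies. Within ROS, arrays 1 and 2 were lower than arrays 3 and 4, and all 4 lay below SOY. Cyp4v3, another fatty acid hydroxylase, read 1355, 3387, 2809.7 and 3351 in ROS, against 6142, 5553, 8832 and 5576 in SOY, a difference of -1.31 ± 0.28 (adjusted p = 0.023). Against CON, Cyp4v3 had -0.87 ± 0.28 in ROS (adjusted p = 0.281) and 0.44 ± 0.28 in SOY (adjusted p = 0.719), so its gap between the treated groups was made up of differences to both sides of CON.

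Cyp2f2, a P450 of airway club cells that in liver marks periportal hepatocytes, read 4894, 3475, 5559.6 and 6277 in ROS, against 8361, 8495, 8616 and 8296 in SOY. The SOY values were nearly alike and all above ROS, and the difference was -0.77 ± 0.16 (adjusted p = 0.0206). The summed intensity of the 7 periportal markers on the array, of 11 listed, Cyp2f2 among them, was 46240 to 55654 in ROS and 57253 to 62341 in SOY (exact permutation p = 0.0286, adjusted p = 0.229). Most of that sum was Cps1, at 22720 to 26398 in ROS and 26033 to 30310 in SOY, and Arg1, at 10663 to 13387 and 13190 to 14428. The markers did not fall as a class: 4 had positive and 3 negative differences, with a median of 0.00. Cyp2f2 was the only one of the 7 past the threshold, and the part of zonation in its difference was not tested; in whole liver, fewer cells of a type and less RNA per cell cannot be told apart. Over the 27 genes of the whole list 0 were called higher, and the median was -0.04, against 0.04 for all probe sets. The share called lower over all probe sets was 0.34%. Cyp1a2, a pericentral P450 that oxidises caffeine, had -0.82 ± 0.25 without overlap and missed the threshold (adjusted p = 0.125). With 1 array left out the calls ended for Cyp4a12b without ROS 1, ROS 2 or SOY 2 (adjusted p up to 0.0603), for Cyp4v3 without ROS 1, ROS 3, SOY 1, SOY 2 or SOY 3 (up to 0.111) and for Cyp2f2 without ROS 1, ROS 2, SOY 1 or SOY 2 (up to 0.0735).

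The lysosomal genes Lamp1, Mfsd1 and Atp6v1a and the autophagy gene Sqstm1 were lower in ROS than in SOY. Lysosomes are acidified by a proton pump, the V-type ATPase, and digest what endocytosis and autophagy deliver. Many of their genes carry in their promoters the letters CACGTG, the core bound by basic helix-loop-helix factors such as TFEB. The promoters of the 3 called genes of the lysosomal membrane and pump are shown because each was called lower in ROS. Whether the 3 genes share a regulator was not tested. They are RefSeq's mouse promoters (GRCm38.p6), 250 bases up to the annotated start, 5′ to 3′ on the gene's strand, with CACGTG in capitals. They lie at chr8:13158911-13159160 on the plus strand for Lamp1, chr3:67582518-67582767 on the plus strand for Mfsd1 and chr16:44139260-44139509 on the minus strand for Atp6v1a.
Lamp1: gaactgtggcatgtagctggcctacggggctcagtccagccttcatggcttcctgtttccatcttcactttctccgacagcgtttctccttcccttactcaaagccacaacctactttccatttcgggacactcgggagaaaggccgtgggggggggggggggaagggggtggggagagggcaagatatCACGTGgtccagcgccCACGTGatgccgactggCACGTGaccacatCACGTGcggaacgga
Mfsd1: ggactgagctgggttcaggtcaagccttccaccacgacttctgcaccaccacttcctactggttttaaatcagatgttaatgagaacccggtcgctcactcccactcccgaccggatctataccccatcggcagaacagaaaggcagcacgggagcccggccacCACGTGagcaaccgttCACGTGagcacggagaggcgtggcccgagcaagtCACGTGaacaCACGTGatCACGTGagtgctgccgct
Atp6v1a: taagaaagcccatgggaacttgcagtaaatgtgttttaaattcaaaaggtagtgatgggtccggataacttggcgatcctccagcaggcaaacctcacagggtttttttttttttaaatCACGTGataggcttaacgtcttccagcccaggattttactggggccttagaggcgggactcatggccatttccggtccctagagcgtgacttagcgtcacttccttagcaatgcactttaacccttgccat
Lamp1 holds 4 matches between 61 and 15 bases before its start, Mfsd1 holds 5 between 86 and 18, and Atp6v1a holds 1 at 131. CACGTG reads the same on both strands, and no 2 of these matches overlap. Windows of 300 bases (these and the first 50 of the gene) held it in 7.15% of 32851 RefSeq promoters. Counted by gene, with a match in any promoter, it was 8.09% of 27025 genes. Among tested genes with a promoter in the table it was 12.4% of 4472. For the list of lysosomal membrane and proton pump genes it was 9 of 20 genes, for lysosomal hydrolases 9 of 30 and for autophagy genes 3 of 14. Among the called genes with a promoter in the table it was 5 of 19 that were lower in ROS, the other 2 being Cryz and Cyp4v3, and 2 of 4 that were higher, Phf7 and Slc12a7. The match was thus found in called genes of both directions. No match was found in the windows of Sqstm1 and Apoa4.

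Lamp1, a major glycoprotein of the lysosomal membrane, read 8192, 8078, 8472 and 7916 intensity units in the ROS arrays, against 12700.1, 11481, 12106 and 12025 in the SOY arrays. Both groups were tight and did not overlap, and the log2 difference was -0.56 ± 0.07 (limma, adjusted p = 1.79e-05). CON, with 9357, 9541, 10481 and 11365, lay between them: ROS minus CON was -0.31 ± 0.07 (adjusted p = 0.0575) and SOY minus CON 0.25 ± 0.07 (adjusted p = 0.391). Atp6v1a, the catalytic subunit of the proton pump, read 1103, 1100.5, 1084 and 1130.0 in ROS, against 1580.0, 1673, 1649 and 1624 in SOY. Its difference was -0.55 ± 0.11 (adjusted p = 0.0211), with CON again between, at 1404 ± 54.5 (SD, n = 4). Its other 2 probe sets had -0.29 (adjusted p = 0.125) and -0.20 (adjusted p = 0.503). Mfsd1, a transporter of the lysosomal membrane, read 1658, 1460.5, 1815 and 1416 in ROS, against 2166, 2238, 2158 and 2126 in SOY, a difference of -0.45 ± 0.09 (adjusted p = 0.0211). The dimmer probe set of Mfsd1 had -0.20 (adjusted p = 0.569).

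Sqstm1, the receptor p62 that carries ubiquitinated cargo into autophagosomes, read 2708, 2729.7, 3071 and 3042 intensity units in the ROS arrays, against 4235, 4199.7, 3939 and 3579.8 in the SOY arrays. All ROS arrays lay below all SOY arrays, and the difference was -0.46 ± 0.08 (adjusted p = 0.00467). CON, at 3814 ± 129.7, was close to SOY: ROS minus CON was -0.40 ± 0.08 (adjusted p = 0.0253) and SOY minus CON 0.06 ± 0.08 (adjusted p = 0.891). Sqstm1 lost its call in the fit to ROS and SOY alone and without ROS 2 and SOY 2 together (adjusted p up to 0.0775). With 1 array left out, Atp6v1a lost it without ROS 1, ROS 2, ROS 3, SOY 1 or SOY 2 (adjusted p up to 0.0676) and Mfsd1 without ROS 2, ROS 4, SOY 1 or SOY 2 (up to 0.0877).

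Of 27 measured genes of the lysosomal membrane and proton pump, 3 were lower and 0 higher, with a median of -0.11 and negative differences in 20. Of 34 lysosomal hydrolases 0 passed, with a median of -0.09 and 22 negative. Of 19 autophagy genes 1 was lower and 0 higher, with a median of -0.14 and 14 negative. All probe sets had a median of 0.04, and the 2452 brightest -0.03. Of all 7357 probe sets 0.34% were called lower. Their share of negative differences was not counted, so the 20, 22 and 14 are a description. These 3 lists were put together after Lamp1 and Sqstm1 had been seen, so their counts are a description. Quantile normalization gave -0.14, -0.08 and -0.16 for the 3 medians, against 0.00 for all probe sets. With equal medians 7 genes of the membrane and pump, 9 hydrolases and 6 autophagy genes were lower and 0 of each list higher. Their medians were -0.24, -0.22 and -0.27, against -0.08 for all probe sets, of which 232 of 7360 were called lower.

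Other members lay in the same direction without passing the threshold. Glmp, a glycosylated protein of the lysosomal membrane, had -0.34 ± 0.09 (adjusted p = 0.0646). The hydrolases included Hexa, a hexosaminidase, with -0.59 ± 0.14 (adjusted p = 0.063), Acp5, an acid phosphatase, with -0.38 ± 0.10 (adjusted p = 0.0689), and the cathepsins Ctsz with -0.38 ± 0.11 and Ctsa with -0.42 ± 0.12 (both adjusted p = 0.0995). Gabarapl1, a ubiquitin-like protein of autophagosomes, had -0.42 ± 0.10 (adjusted p = 0.0573) and Trp53inp2, which recruits such proteins, -0.41 ± 0.11 (adjusted p = 0.0767). The related Map1lc3a went the other way, with 0.50 ± 0.12 (adjusted p = 0.0653). In the plot of the lysosome and autophagy lists most members stand left of 0, and uncalled members such as Hexa reach as far as the called ones with wider errors.

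**Figure D4:**
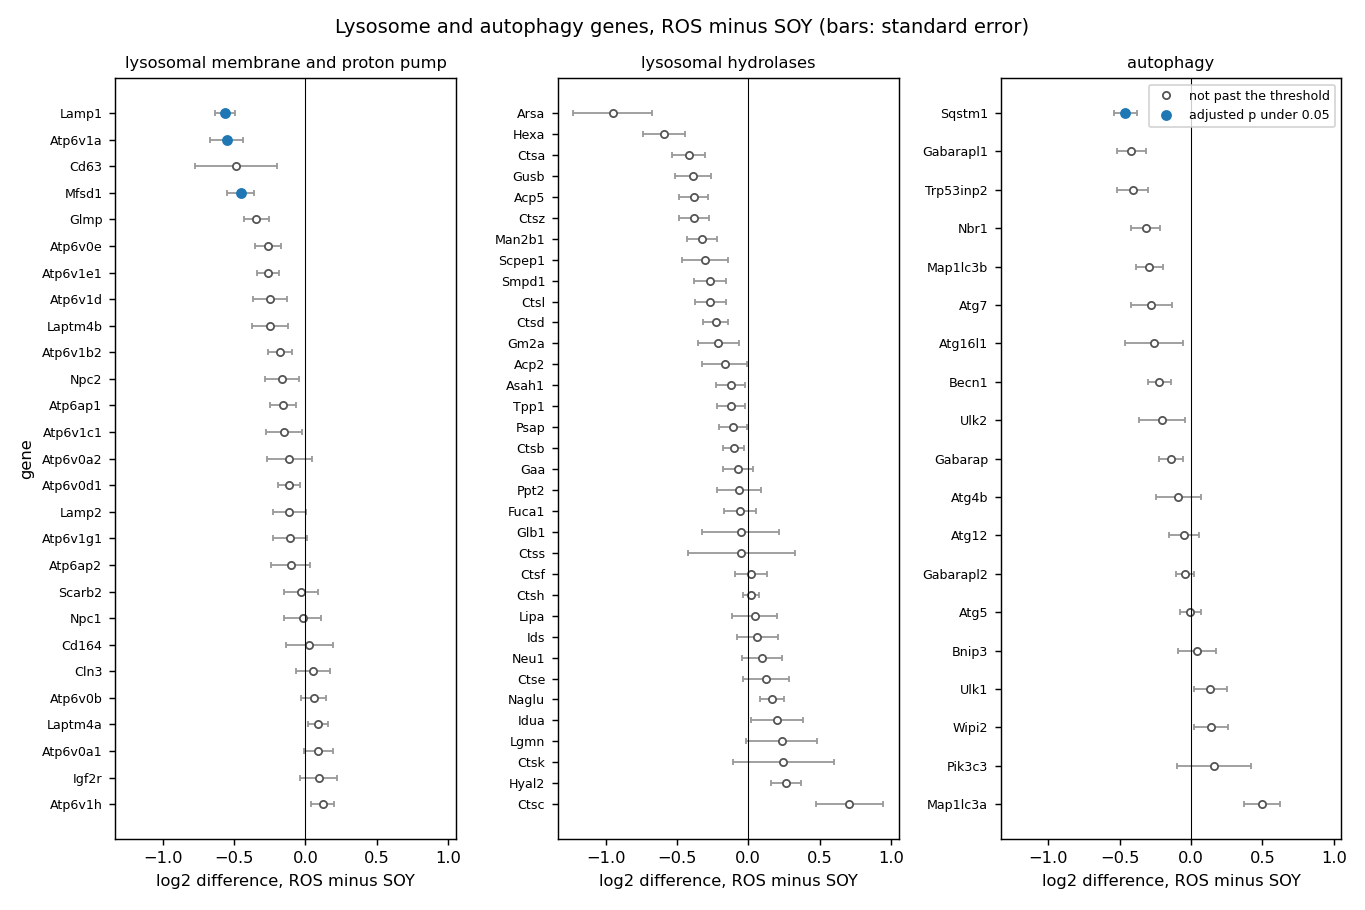
Log2 difference, ROS minus SOY, with its standard error (x axis) of each measured gene of 3 lists (y axis): 27 of the lysosomal membrane and proton pump, 34 hydrolases and 19 autophagy genes. Blue points passed the threshold (Lamp1, Atp6v1a, Mfsd1 and Sqstm1) and open points did not; 20, 22 and 14 points lie below 0.

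Keratin 8 (Krt8), the hepatocyte's intermediate filament protein, read 1440.2, 1751, 1603 and 1778 intensity units in the ROS arrays, against 2808, 3604, 2370.5 and 2784 in the SOY arrays. The groups were apart, with a difference of -0.79 ± 0.16 (limma, adjusted p = 0.0183), and CON averaged 2821 ± 249.9 (SD, n = 4). Ywhaz, an adaptor of the 14-3-3 family, had means of 2834 ± 209 in ROS and 4020.2 ± 79 in SOY and a difference of -0.50 ± 0.11 (adjusted p = 0.0211). Gas2, a cytoskeletal protein induced at growth arrest, had -0.50 ± 0.11 (adjusted p = 0.0336). Psma6, a subunit of the proteasome's core, had -0.38 ± 0.09 (adjusted p = 0.0343), and was the 1 lower of 35 proteasome genes, with 0 higher and a median of -0.06. Its ROS and SOY arrays overlapped only narrowly, at 3279.7 in ROS 4 and 3279.2 in SOY 3. Each of these 4 calls ended with some single arrays left out. Krt8 lost it without ROS 1, SOY 1 or SOY 2 (adjusted p up to 0.0721). Ywhaz and Psma6 lost it without ROS 1, ROS 2, ROS 3, SOY 1 or SOY 2 (up to 0.0681 and 0.132, both without ROS 2). Gas2 lost it without any 1 of the ROS arrays and without SOY 1 or SOY 2 (up to 0.134).

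The other called genes lower in ROS are named for completeness, after their values were seen. Lgals1, a galactose-binding lectin, had -0.71 ± 0.17 (adjusted p = 0.0443), with an overlap of ROS 4 and SOY 3. Those of the secretory and endosomal path were Man2a1, a Golgi mannosidase that trims N-glycans, with -0.44 ± 0.08 (adjusted p = 0.0128), Slc35d1, a carrier of nucleotide sugars, with -0.38 ± 0.08 (adjusted p = 0.023), and Snx3, an endosomal sorting protein, with -0.33 ± 0.07 (adjusted p = 0.0182). Serpind1, the thrombin inhibitor heparin cofactor II, had -0.27 ± 0.06 (adjusted p = 0.0461). The reductases Akr1a1 and Cryz had -0.36 ± 0.08 (adjusted p = 0.023) and -0.40 ± 0.09 (adjusted p = 0.0399). Bud31, a spliceosome protein, had -0.31 ± 0.07 (adjusted p = 0.0336). A dimmer probe set of Set, a histone chaperone, had -0.41 ± 0.09 (adjusted p = 0.0336), whereas its brightest had 0.05 (adjusted p = 0.895). Apart from that of Lgals1, these differences lay between -0.44 and -0.27. In all but Lgals1 every ROS array lay below every SOY array, as in most called probe sets. Each of these calls ended without at least 1 array, with the highest adjusted p between 0.0591 for Man2a1 and 0.152 for Lgals1, in both cases with a SOY array left out (SOY 2 and SOY 1).

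Fewer probe sets were higher in ROS. Plpp3, a lipid phosphatase that clears lysophosphatidic acid, read 2826, 2566, 2487 and 2764 intensity units in the ROS arrays, against 1677, 1929, 2038 and 1842 in the SOY arrays. The groups were apart, with a difference of 0.50 ± 0.10 (limma, adjusted p = 0.0128), and CON averaged 2248 ± 245 (SD, n = 4). Ago2, the Argonaute protein that cuts RNA targets of small RNAs, was dim, with 129.7, 194, 249.7 and 222 in ROS, against 98.6, 109.5, 45.6 and 63.5 in SOY, and had 1.10 ± 0.26 (adjusted p = 0.0477). Cdkn2aipnl read 326, 333, 338 and 356 in ROS, against 209, 233, 186 and 253 in SOY, a difference of 0.57 ± 0.11 (adjusted p = 0.016). All ROS arrays exceeded all SOY arrays in these 3 genes. Phf7, a histone-binding protein known from male germ cells, had 0.46 ± 0.10 (adjusted p = 0.0336), and its other probe set 0.10 (adjusted p = 0.852). Slc12a7, a potassium chloride cotransporter, had 0.38 ± 0.09 (adjusted p = 0.0401).

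The other called probe sets that were higher in ROS do not name a gene firmly. A dim probe set of Gal, the neuropeptide galanin, had 0.94 ± 0.19 (adjusted p = 0.0206) and the brightest one of that gene 0.32 (adjusted p = 0.337). A dim probe set of Sfxn2, a mitochondrial membrane protein, had 0.47 ± 0.11 (adjusted p = 0.0443) and the brightest -0.15 (adjusted p = 0.579), so the probe sets of Sfxn2 disagree in sign. Probe set 101680_at, which carries several symbols, had 0.41 ± 0.09 (adjusted p = 0.023). With equal medians the calls of Plpp3, Phf7, Slc12a7, 101680_at and the dim Sfxn2 probe set ended. The calls of Plpp3, Ago2, Cdkn2aipnl, Phf7, Slc12a7 and 101680_at and of the dim Gal and Sfxn2 probe sets each ended without at least 1 array, with the highest adjusted p between 0.0581 for Cdkn2aipnl, without SOY 1, and 0.146 for the Sfxn2 probe set, also without SOY 1.

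The largest difference of all belonged to probe set 104421_at, which has no gene symbol in the annotation used here. It read 6585, 3182, 1356 and 4354 intensity units in the ROS arrays, against 90.3, 105, 99.1 and 227 in the SOY arrays. In ROS every array was far above every SOY and CON array, although the ROS arrays themselves ranged widely, and CON read 142, 99.9, 289.9 and 182. The log2 difference was 4.50 ± 0.58 (limma, adjusted p = 2.74e-05) against SOY, and 4.12 ± 0.58 (adjusted p = 0.000198) against CON. Probe set 97317_at, also without a symbol, was lower in ROS. It read 1546, 1197, 1952 and 1588 in ROS, against 2597, 3131, 2675 and 2658 in SOY, a difference of -0.82 ± 0.17 (adjusted p = 0.0219), and CON read 3065, 2567, 3069.9 and 2653. Its call ended without ROS 1, ROS 2, SOY 1 or SOY 2 (adjusted p up to 0.0804), while that of 104421_at held with each array left out in turn.

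Genes of fat storage that PPAR gamma activates in adipose tissue did not pass the threshold. Of 18 measured genes of this list 0 were called, by limma, and 3 were higher and 0 lower at an unadjusted p under 0.05. The median was 0.07, against 0.04 for all probe sets. Pparg itself was dim, with 165, 119, 106 and 140.5 in ROS, against 138, 162, 113 and 160.4 in SOY (-0.10 ± 0.27, adjusted p = 0.898). Rxra, its retinoid X partner, read 1826, 1592, 1577 and 1536 in ROS, against 1198, 1467, 1385 and 1335 in SOY, without overlap but with a difference of only 0.27 ± 0.10 (adjusted p = 0.216). Fabp4, the adipocyte fatty acid carrier, read 85.4, 166, 176 and 209.8 in ROS, against 72.9, 111, 133 and 47.3 in SOY, a difference of 0.67 ± 0.30 (adjusted p = 0.311). The groups overlapped for Fabp4 and for Plin4, a lipid droplet protein, which read 307, 116, 384 and 333 in ROS, against 101, 294, 96.7 and 42 in SOY, a difference of 1.08 ± 0.52 (adjusted p = 0.348).

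Adipoq, the adipocyte hormone adiponectin, had 0.72 ± 0.38 (adjusted p = 0.399), and Lpl, lipoprotein lipase, 0.97 ± 0.67 (adjusted p = 0.542), with 1032 units in ROS 4, the array with most muscle RNA, against 183.0 to 331.6 in the other ROS arrays. Cd36, a fatty acid transporter that liver PPAR gamma induces, read 139.7, 146, 192 and 216 in ROS, against 192, 164, 136 and 164 in SOY. Its groups overlapped, its difference was 0.06 ± 0.17 (adjusted p = 0.911), and its sign turned with quantile normalization, with equal medians and without ROS 4 or SOY 3. The summed intensity of 7 adipocyte markers, of 9 listed, was 10226 to 19416 in ROS and 14743 to 21192 in SOY (exact permutation p = 0.486). Most of that sum was Car3, a carbonic anhydrase that liver also makes, at 9154 to 17591 in ROS and 13262 to 19269 in SOY, so the sum does not follow the dim Adipoq and Fabp4.

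PPAR alpha targets and fatty acid oxidation had 0 of 31 genes called, and 0 in either direction at an unadjusted p under 0.05, with a median of 0.05. Fabp1, the liver fatty acid carrier, read 20327, 20452, 23907 and 21877 in ROS, against 25003, 14962, 18934 and 16976 in SOY and overlapped between groups (0.21 ± 0.13, adjusted p = 0.483). Decr1, an enzyme of unsaturated fatty acid oxidation, had 0.22 ± 0.13 (adjusted p = 0.469), and Cyp4a10, a classic PPAR alpha target whose probe set can take signal from its family, 0.18 ± 0.17 (adjusted p = 0.643). In lipogenesis 0 of 17 genes passed and 1 was higher unadjusted, with a median of 0.03. Srebf1, the lipogenic transcription factor, had 0.20 ± 0.13 (adjusted p = 0.51) and Elovl5, which lengthens polyunsaturated fatty acids, 0.26 ± 0.13 (adjusted p = 0.359). In cholesterol synthesis and uptake 0 of 16 passed and 2 were higher unadjusted, with a median of -0.05. Those 2 were Hsd17b7, with 304, 289, 251 and 432 in ROS, against 169, 179.9, 182 and 238 in SOY (0.64 ± 0.19, adjusted p = 0.125), and Hmgcs1, with 1198, 941, 1019 and 1029 in ROS, against 742, 697, 539 and 823 in SOY (0.57 ± 0.25, adjusted p = 0.293). Neither overlapped between the groups.

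Some insulin-responsive genes had differences of over 1 on the log2 scale, in opposite directions, that missed the threshold. Igfbp1, a binding protein of insulin-like growth factors that insulin represses, read 337, 215, 257 and 220.1 intensity units in the ROS arrays, against 1024, 630.1, 537 and 650.0 in the SOY arrays. All ROS arrays lay below all SOY arrays (-1.35 ± 0.35, limma, adjusted p = 0.0689), while CON spread from 207.9 to 861.4. The probe set of Igfbp1 can take signal from its family. Irs2, an adaptor of the insulin receptor, was dim and read 177, 186, 84.8 and 251 in ROS, against 49.7, 56.8, 58.8 and 49 in SOY, again without overlap (1.25 ± 0.40, adjusted p = 0.153). Pck1 and G6pc, enzymes of glucose output, had 0.24 ± 0.14 (adjusted p = 0.456) and -0.23 ± 0.26 (adjusted p = 0.736), with 0 of 13 genes of gluconeogenesis and glycolysis called and a median of 0.01.

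Catabolism of amino acids and urea synthesis had 0 of 20 genes called, 1 higher and 4 lower unadjusted, and a median of -0.06. Tat, which starts tyrosine breakdown, read 7875, 7697, 8069 and 9432 in ROS, against 13112, 13515, 9142 and 10366 in SOY (-0.46 ± 0.15, adjusted p = 0.153). SOY minus CON for Tat was 0.47 ± 0.15 (adjusted p = 0.391), and ROS minus CON was 0.00 ± 0.15. Hgd, a later enzyme of that path, had -0.25 ± 0.08 (adjusted p = 0.126), and Bcat2, a transaminase of branched-chain amino acids, 0.54 ± 0.15 (adjusted p = 0.109). Of 17 bile acid genes 0 passed, with a median of -0.14. Cyp8b1, which makes cholic acid, had -0.78 ± 0.30 (adjusted p = 0.216), and Cyp7a1, the first enzyme of the path, -0.18 ± 0.38 (adjusted p = 0.872), with a sign that turned without ROS 3 or SOY 4.

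Conjugating and antioxidant enzymes had 0 of 43 genes called, with 4 higher and 10 lower unadjusted and a median of -0.02. Gstm1, a glutathione transferase whose probe set can take signal from its family, read 18105, 16260.1, 17866 and 17322 in ROS, against 23469.5, 20394, 23057 and 22069.7 in SOY, without overlap (-0.35 ± 0.09, adjusted p = 0.0658). Gsta2 had -0.95 ± 0.29 (adjusted p = 0.13), with ROS 2 at 596.6 units and the other ROS arrays from 1919.7 to 2260.0. Gstp1 had -0.52 ± 0.15 (adjusted p = 0.119), and Prdx2, a peroxiredoxin, -0.30 ± 0.08 (adjusted p = 0.0738). With equal medians 7 of the 43 were lower. Oxidative phosphorylation had 0 of 64 called and a median of -0.04, or 0.00 after quantile normalization and 8 lower with equal medians. Its members of smallest p were Sdhd (-0.50 ± 0.13, adjusted p = 0.0689), Cox6a1 (-0.32 ± 0.08, 0.0716), Uqcr10 (-0.28 ± 0.07, 0.0738) and Ndufa6 (0.31 ± 0.09, 0.0867), the last of which had a positive difference. Psmd1, a regulatory subunit of the proteasome, had -0.51 ± 0.14 (adjusted p = 0.0746).

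Among stress genes, Atf3, a transcription factor of the stress response, read 221, 179, 266 and 154 in ROS, against 867, 429, 396 and 302 in SOY, without overlap (-1.10 ± 0.29, limma, adjusted p = 0.0746). Ddit3, which acts in stress of the endoplasmic reticulum, read 44.4, 52, 58.3 and 58.5 in ROS, against 437, 267, 50.4 and 74.5 in SOY, so that 2 SOY arrays were high and the other 2 overlapped ROS (-1.18 ± 0.51, adjusted p = 0.297). Of 22 genes of endoplasmic reticulum chaperones and stress 0 passed, with a median of -0.01, and Hspa5, the main chaperone there, had -0.23 ± 0.15 (adjusted p = 0.506). Of 26 heat shock genes 0 passed, with a median of -0.07. Hsp90aa1 had -0.70 ± 0.22 (adjusted p = 0.149) and the small heat shock protein Cryab, which muscle also makes, 0.73 ± 0.19 (adjusted p = 0.0738), with its highest value, 404.1, in ROS 4. In growth arrest and apoptosis 0 of 25 passed, with a median of -0.03. Casp8, an initiator caspase, had 0.49 ± 0.14 (adjusted p = 0.109), and Gadd45a, a growth arrest gene, 0.09 ± 0.24 (adjusted p = 0.9).

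Interferon-induced and antigen processing genes had 0 of 30 called and a median of -0.12, with 21 negative differences, and -0.13 after quantile normalization. Irf7 had -0.47 ± 0.20 (adjusted p = 0.292), Ifit1 -0.61 ± 0.34 (adjusted p = 0.435) and Isg15 0.07 ± 0.20 (adjusted p = 0.896), each with overlapping groups. Cd14, a receptor for bacterial lipopolysaccharide, had -0.60 ± 0.18 without overlap (adjusted p = 0.117). The summed intensity of 17 markers of Kupffer cells and macrophages, of 20 listed, was 5157 to 8530 in ROS and 4776 to 8605 in SOY, and 0 of 12 tested markers passed. Among the defining ones Clec4f read 324 to 633.3 in ROS and 270.5 to 504.1 in SOY, and Marco was below 27 units in all 8 arrays. Adgre1, which was dim, read 37.3 to 83.8 in ROS and 15.8 to 25.6 in SOY, without overlap, and 23.7 to 89.1 in CON. Mpeg1 leaned the other way, at 601.7 to 1243.5 in ROS and 908.9 to 1996.4 in SOY, with overlap. Of the 12 tested markers 6 had positive and 6 negative differences.

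Acute phase and complement genes had 0 of 31 called and a median of 0.10. Hamp, the iron hormone hepcidin, read 9013, 219, 11572 and 13696 in ROS, against 13051, 16750.4, 12129.7 and 11835 in SOY (-1.62 ± 0.65, adjusted p = 0.246); its low value stood in ROS 2, the array with the highest Saa2. Clock genes had 0 of 14 called and a median of 0.10, with Dbp at 0.23 ± 0.12 (adjusted p = 0.38). Glucocorticoid and fasting regulators had 0 of 24 called and a median of 0.08, or -0.01 after quantile normalization, with Fkbp5 at 0.43 ± 0.16 (adjusted p = 0.209). Of the 14 marker lists of cell types 13 had 0 genes called, and the list of periportal markers had 1, Cyp2f2. The summed intensity of 6 erythroid markers, of 10 listed, was 11683 to 20609 in ROS and 8023 to 16039 in SOY (exact permutation p = 0.171). Of 5 tested erythroid markers 3 were higher at an unadjusted p under 0.05 (Klf1, Slc4a1 and Hbb-b2) and 4 had positive differences, with a median of 0.49. Alas2 went the other way, at 432.7 to 931.4 units in ROS and 725.9 to 1149.3 in SOY. With equal medians 3 erythroid markers were higher and 1 lower unadjusted. Of 13 tested skeletal muscle markers 13 had positive differences, with a median of 0.36, and 0 passed even unadjusted. After quantile normalization 11 of these 13 were positive, and with equal medians 10. The erythroid and muscle medians of 0.49 and 0.36 lie above the 0.04 of all probe sets and the 0.11 of the 2453 dimmest. The muscle markers summed to 33702 in ROS 4, against 3455.4 to 4020.2 in the other ROS arrays. In SOY they summed to 10784 in SOY 3, against 3084.5 to 4165.3 in the others. The muscle median without ROS 4 was not computed.

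Against the control diet, limma called 10 of the 7357 probe sets in ROS (0.136%), 2 higher and 8 lower, with 619 at an unadjusted p under 0.05. In SOY it called 0 (0%), with 601 unadjusted, 237 higher and 364 lower, and 0 to 1 with 1 array left out. These comparisons share the CON arrays, so they are given side by side and not set against each other. For 30 of the 34 probe sets called between ROS and SOY the CON mean lay between the means of the treated groups, and for 4 it lay beyond SOY. The plot of differences from CON shows both kinds. The 34 were called for their gap between ROS and SOY, which makes a CON mean inside that gap likely. The share over all 7357 tested probe sets was not counted, so the 30 of 34 are a description. Apoa4, Cyp4a12b, Rundc3a, Wfdc2, Upp2, Krt8, Sqstm1, 97317_at and 104421_at were called in ROS against CON too. The tenth was Ugcg, glucosylceramide synthase, which read 618, 560.4, 567 and 547 in ROS, against 399, 411, 425 and 433 in SOY, with CON at 362, 243, 347 and 323. This probe set of Ugcg was higher in ROS than in CON (0.81 ± 0.13, adjusted p = 0.0019), and its difference from SOY, 0.43 ± 0.13, missed the threshold (adjusted p = 0.125). The dimmer probe set of Ugcg had 0.27 ± 0.21 for ROS minus CON (adjusted p = 0.8288). It had 0.56 ± 0.21 for ROS minus SOY (adjusted p = 0.209). For SOY minus CON the probe sets differed in sign, with 0.37 ± 0.13 in the brighter and -0.28 ± 0.21 in the dimmer. Without CON 4 there were 4 calls in ROS against CON, and without CON 3 and ROS 4, the arrays with most muscle RNA, 5.

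**Figure D5:**
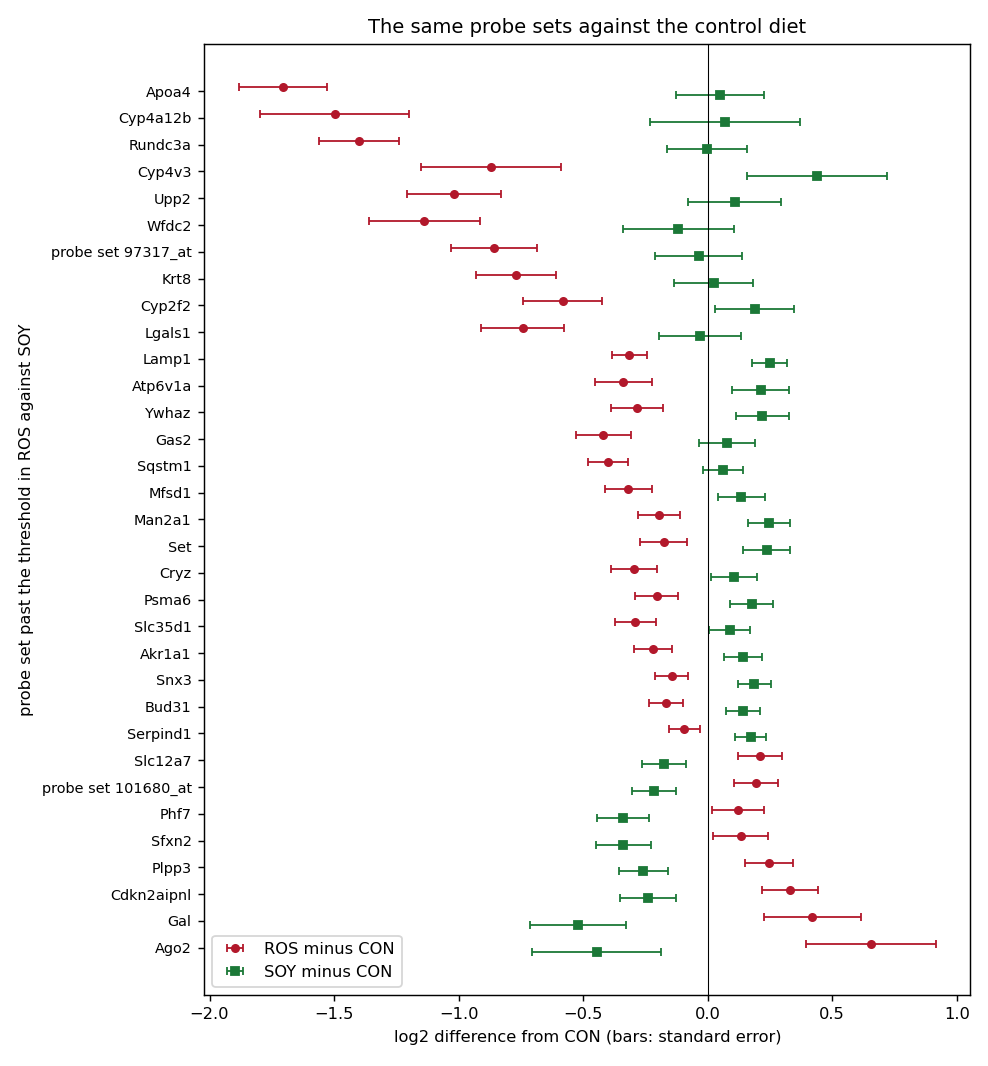
Log2 differences from CON, with standard errors (x axis), of 33 probe sets called between ROS and SOY (y axis); 104421_at, at 4.12 for ROS and -0.38 for SOY, is off the scale and not drawn. Red circles are ROS minus CON and green squares SOY minus CON. For Apoa4, Rundc3a and Wfdc2 the gap lies on the ROS side, whereas for Lamp1, Atp6v1a and Snx3 the groups lie on both sides of CON.

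The genes of smallest p in SOY against CON, none of them called, included Cdc45, a replication factor, with means of 213 ± 30.0 in ROS and 107 ± 33.4 in SOY and 218 ± 15.1 in CON (SD, n = 4). Its difference from CON was -0.91 ± 0.22 in SOY (adjusted p = 0.391) and -0.03 ± 0.22 in ROS, and ROS minus SOY was 0.87 ± 0.22 (adjusted p = 0.0646). Creb3l1, a transcription factor of the secretory path, had -0.36 ± 0.09 in SOY against CON and 0.34 ± 0.09 in ROS against SOY (adjusted p = 0.0689). Csf3, with means of 288 in ROS, 177 in SOY and 380 in CON, had -1.17 ± 0.27 for SOY minus CON. It had -0.38 ± 0.27 for ROS minus CON and 0.78 ± 0.27 for ROS minus SOY (adjusted p = 0.186). Pax2 was dim, with -1.10 ± 0.24 for SOY minus CON and -0.53 ± 0.24 for ROS minus CON (adjusted p = 0.561). For Pax2 ROS thus lay between SOY and CON, and ROS minus SOY was 0.57 ± 0.24 (adjusted p = 0.293). For all 4 genes the adjusted p in SOY against CON was 0.391.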

How the data were processed

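Liver RNA of 32 mice was hybridised to Affymetrix MG-U74Av2 arrays, 1 per mouse. The authors deposited a linear intensity for each probe set on each array and had scaled it: each column's mean without its top and bottom 2% of values was 500.38 to 500.47. The software, background correction, detection calls, scan dates and batches are not stated in the labels or file headers, so no batch could be tested. Of 12488 probe sets 66 controls were left out. Platform annotation gave 1 symbol for 10833 of the others, several for 396 and none for 1193. Intensities were taken as log2(intensity + 27), the 20th percentile of all values, and probe sets were kept when their mean log2 value exceeded that of the 40th percentile (94.2). This left 7357 probe sets and 5545 genes, each represented by its brightest probe set.

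Differences were fitted with limma 3.58.1 in R 4.3.3 (lmFit, eBayes with trend), tested on simulated data first. All 8 groups entered the fit, with 24 residual degrees of freedom, and p-values were adjusted over all 7357 by Benjamini-Hochberg at 0.05. Errors of intensities are SDs over 4 arrays. Single values per array were compared by two-sided exact permutation tests. The limma p-values set a difference against a spread between mice that was pooled over all 8 groups and moderated by its trend with intensity. That spread is not the spread of the ROS and SOY mice alone, and the number of arrays limits the precision.

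The comparison, gene lists, rule for named genes and tests were chosen with earlier results of these data known. The rule took up to 12 genes with the largest difference in each direction among called genes whose arrays did not overlap, up to 4 members of each list, a fixed set of metabolic genes, and the 5 genes of smallest p in ROS and in SOY against CON. The other called probe sets were added after their values were seen. As alternatives, the values were scaled by quantiles or to equal medians, added values and filters were varied, the fit was limited to the groups compared or given the replicate number as a block, probe sets were limited to the brightest of each gene or to those of a single transcript, and arrays were left out. ROS and SOY arrays of the same number did not deviate together in every pair (correlations of 0.044, 0.133, 0.042 and 0.0042), so the numbers were not taken to pair the mice. Promoters came from RefSeq.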

Additional observations from a re-analysis of the deposited data

Results flagged for a closer look

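Among 202 groups of 4 arrays examined, 11 had 1 array far from the other 3 by Dixon's criterion, where chance gives about 1 in 20. Muscle markers summed to 33702 units in ROS 4 and to 10784 in SOY 3, and acute phase and complement genes to 294770 in ROS 2 and to 263930 in SOY 2. Cryab stood out in ROS 4 with 404.1 units. Gstp1 was low in ROS 2 with 6711.2. Cyp7a1, at 1585.8, and Apoc2, at 14056, were high in ROS 1. In SOY, Lgals1 was low in SOY 3 with 1155.8, 97317_at was high in SOY 2 with 3131.3, and 104421_at was high in SOY 4 with 227.1, which is still below every ROS array.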

How the results depend on the processing

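The 34 calls between ROS and SOY became 24 with quantile normalization (21 of the 34 among them), 238 with equal medians (29 among them), 12 in a fit to ROS and SOY alone (8 among them), 19 without ROS 4 and SOY 3 and 14 without ROS 2 and SOY 2; the last 2 settings were chosen after seeing the data. Leaving out 1 array gave 8 to 38 calls. Other added values, filters and probe set choices gave 28 to 40. The replicate block gave 25 calls, all among the 34; the ROS and SOY samples share only a number, and 2 of 4 ROS arrays correlated best with the SOY array of their own number. The 10 calls in ROS against CON became 5 in a fit to ROS and CON alone, 5 without CON 3 and ROS 4, and 4 to 12 with 1 array left out. The 0 calls in SOY against CON stayed 0 in all fits but the one without SOY 3, which gave 1. Over 97 named probe sets, 2002 alternatives kept direction and side of the threshold in 1692, lost the call in 256, gained it in 40 and turned the sign in 14, none of them for a called probe set. Cd36 turned to -0.05037 with quantile normalization, -0.05566 with equal medians and -0.1129 without ROS 4 and SOY 3, and ran from -0.04009 (without ROS 4; -0.01517 without SOY 3) to 0.1404 with 1 array left out. Cyp7a1 ran from -0.6418 to 0.04324 (without ROS 3; 0.02648 without SOY 4). Isg15 turned to -0.05197 with equal medians and -0.03283 without ROS 2 and SOY 2. Gadd45a turned to -0.03408 with equal medians and -0.05161 without ROS 4 and SOY 3, and ran from -0.03757 (without SOY 3) to 0.2119. Igf1 ran from -0.1409 to 0.000687 (without SOY 1). The cause was not tested in any of these cases. With 4 arrays a group and no detection calls, dim probe sets such as Ago2, Irs2 and Pparg are the least certain.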
